A study of Pimephales promelas with 26 samples.

Results

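Fluoxetine is a selective serotonin reuptake inhibitor: it blocks the serotonin transporter, which returns released serotonin to neurons. As an amphiphilic base it can also collect in lysosomes. The libraries described here come from fathead minnow (Pimephales promelas), a small freshwater fish used in toxicity testing, whose larvae at this age have a swimming body, open eyes, a fin fold and a skeleton that is still mostly cartilage.

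The described libraries form a pair of sets. The outer set holds 11 libraries, 3 at 0.19, 5 at 0.74 and 3 at 47.2 µg/L fluoxetine. The middle set holds 10 libraries, 5 at 3.38 and 5 at 10.2 µg/L. The names outer and middle refer to their place in the range of concentrations. Together they are 21 of the 26 libraries of the series, and the other 5, from larvae kept in water without fluoxetine, belong to neither set. Each library was made from messenger RNA of a pool of 20 whole larvae, 7 days old, exposed through the water from 6 h after fertilization, with each concentration given as measured. No strain or genotype is stated, and the labels name no treatment difference between the groups other than the fluoxetine. The sets were formed after the expression values of these same libraries had been seen, so any difference between them is given below as a description without a test. Only the comparisons between concentrations inside a set, and the library properties, were tested. A batch that followed the same division cannot be told apart from it, because no label names a day, plate or sequencing run.

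The libraries held 13515500 to 27615000 estimated counts in the outer set, 15659900 to 18236900 in the middle set and 13644900 to 20552700 in water. The least measurable level, taken as 3 counts in a library, was 0.109 to 0.222 CPM, the unit of counts scaled to library size used throughout. On the first principal component of all transcripts tested, which carried 8.62% of the variance, the outer libraries scored 18 to 98.5, the middle libraries -126 to 7.17 and the water libraries -33.1 to 24.8. The outer and middle scores did not overlap, and water overlapped both. The middle set was not uniform. Replicates B and D at 3.38 µg/L scored 7.17 and -19.7, and replicates C and D at 10.2 µg/L scored -5.99 and 2.52. These lay inside the water range, and the other middle libraries scored -126 to -77.1. In the outer set, replicates A and E at 0.74 µg/L, at 18 and 20.2, also lay inside the water range. Replicate B at 0.19 µg/L and replicate B at 47.2 µg/L stood apart on the third component, with scores of -226 and -68.2, against -39.1 to 41.9 for the other fluoxetine libraries. Markers of skeletal muscle, heart, lens, photoreceptor, neuron, glia, liver, pancreas, intestine, epidermis and red cells were detected in every library. In pooled whole bodies, fewer cells of a type and less RNA per cell cannot be told apart.

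Fragment length also differed between the sets. The length implied by each library's deposited effective lengths averaged 250.6 ± 9.946 bp in the outer set (SD, n = 11) and 233.7 ± 7.798 bp in the middle set (SD, n = 10), a difference of 16.92 bp (two-sided permutation test, p = 0.0008, adjusted over 2 library properties 0.0016). By concentration it was 248.2 to 257.5 bp at 0.19, 250.4 to 263.1 bp at 0.74, 222.3 to 242.4 bp at 3.38, 226.2 to 246.5 bp at 10.2 and 228.1 to 247.2 bp at 47.2 µg/L. All 8 libraries at 0.19 and 0.74 µg/L had longer fragments than any middle library, while the 3 at 47.2 µg/L lay within the middle set's range but for 1 at 247.2 bp. Water had 235.2 to 239.6 bp. Total counts averaged 19680000 ± 4840000 in the outer set and 16650000 ± 876400 in the middle set. The same permutation test did not separate that difference from the spread between libraries (adjusted p = 0.062). Both p-values come from shuffling single libraries between sets that were formed after data of these libraries had been seen. They take libraries of the same concentration as independent and do not measure the spread between concentrations, so no conclusion about the sets is drawn from them. Length thus followed 0.19 and 0.74 µg/L and not 47.2 µg/L, and its part in the expression differences below was not tested. An alternative added after seeing the data removed its linear effect from the log2 CPM values, with the concentrations kept in the model. Each slope was thus fitted to differences between libraries of the same group, where a single library can weigh heavily. An overlap under this alternative therefore does not show that a difference follows fragment length.

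**Figure D1:**
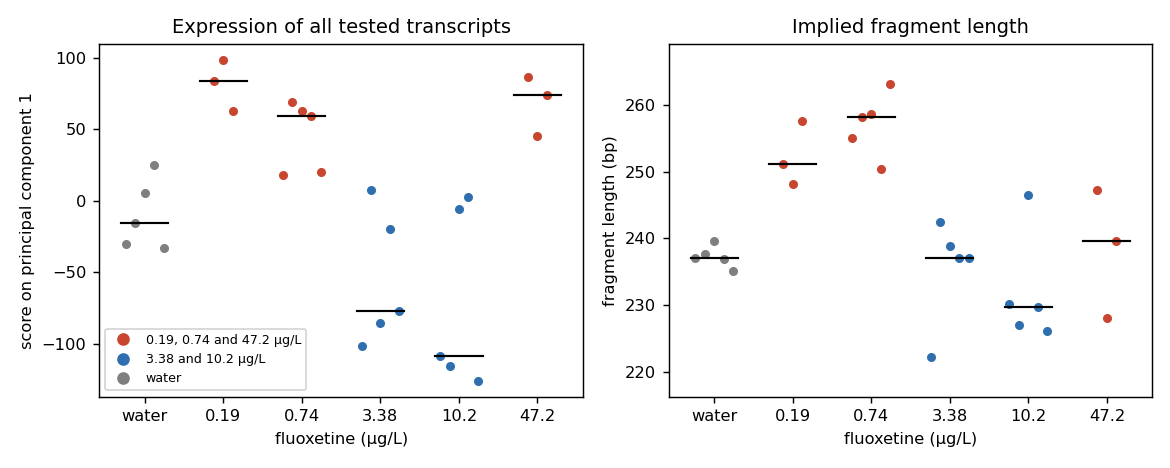
Score on the first principal component (left, no unit) and implied fragment length in bp (right) of each library, by fluoxetine concentration in µg/L on an axis that is not to scale; points are libraries and bars are group medians. Outer libraries score 18 to 98.5 and middle libraries -126 to 7.17, and all libraries at 0.19 and 0.74 µg/L have fragments of at least 248.2 bp.

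Of the 43837 transcripts tested, 130 had a higher level in every outer library than in any middle library (0.297% of those tested), and 129 had a lower level in every outer library (0.294%), together 259 (0.591%). Since the sets were chosen from such values, nothing is read from these shares. The 130 differed by a median of 0.65 on the log2 CPM scale, with a range of 0.16 to 3.35, and 37 of them differed at least 2-fold. The 129 differed by a median of -0.48, and 20 of them differed at least 2-fold. Over all transcripts tested the median was 0.00. Without scaling between libraries the division was 86 above and 177 below. Leaving out a library can only keep or raise these counts, by the construction of the rule. The count above was 263 without replicate D at 10.2 µg/L, 230 without replicate B at 3.38 µg/L and 215 without replicate E at 0.74 µg/L.

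Both groups were more abundant than the average transcript, with median levels of 24.6 CPM for those above and 24.3 CPM for those below, against 5.05 CPM over all tested. The rule favours transcripts with little relative counting noise, as abundant ones have, so the levels of these groups are not independent of it. Their median lengths of 2551 and 2420 bases were close to the 2548 bases of all tested. Non-coding models made up 2 of the 130 above (1.54%) and 16 of the 129 below (12.4%), against 5.72% of all tested. With the effect of fragment length removed, 78 transcripts lay above and 77 below, of which 29 and 34 were among the first counts. Of the 44 transcripts described below as lying above or below, 11 still parted the sets and 33 overlapped. The 11 were tial1, ktn1, hpca, spp1, slc22a16, mbpa XM_039678790.1, srek1, ano2b, rab28 XM_039654938.1 and both atp5mc3b transcripts, so the separation of every other transcript named as above or below was lost under that alternative. In deposited TPM, a level per transcript length, 34 of the 44 parted the sets. Those that overlapped were postnb, scdb, lmo3, ano2b, frmpd4, cnrip1b, gusb, psap, gnb1a and vamp2. Without scaling between libraries 38 parted the sets, and postnb, ano2b, gusb, psap, gnb1a and krt8 overlapped. With the effect of the replicate letter removed 34 parted them. The 10 that overlapped were matn4, tdrd3, scdb, u2af2a, sorbs2a, lmo3, ano2b, frmpd4, gusb and vamp2. At the edge of the rule, the intraflagellar transport transcript ift74 was just inside, with 6.88 to 12.3 CPM in the outer set and 4.33 to 6.87 CPM in the middle set. The actin-binding profilin pfn1 was just outside, with 323 to 395 CPM in the outer set and 222 to 323 CPM in the middle set. On the low side the coiled-coil transcript ccdc167 was just inside, with 13.9 to 18.8 CPM in the outer set and 18.8 to 34.3 CPM in the middle set. The transcript elmod3 was just outside, at 29.8 to 41.6 CPM in the outer set and 41.5 to 55.8 CPM in the middle set.

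The gene lists used here and below were drawn up with earlier results of these data known. Members such as fbln1, glb1l2, hpca, rcan1a, rab28, mbpa and slc22a16 were among the genes known from those results, so nothing is read from the shares of the lists. Of the 35 transcripts of the cartilage, bone and matrix list, 5 lay above (14.3%, against 0.297% of all tested) and none below (0.294% of all tested). With the effect of fragment length removed 1 of them, spp1, lay above, and matn4, postnb, fbln1 and lasp1 overlapped, as did col28a2a and and3 outside the list. The first was matn4, which encodes matrilin 4, an adaptor protein of cartilage and connective tissue matrix. Its lowest, median and highest levels were 62.4, 112 and 218 CPM in the outer set, 0, 19.6 and 55.7 CPM in the middle set and 43.1, 46 and 82.3 CPM in water. Every outer library lay above every middle library, and water lay between the medians with overlap on both sides. The log2 difference of the medians, outer minus middle, was 2.55, and matn4 overlapped between the sets with the effect of the replicate letter removed.

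The matricellular protein periostin is encoded by postnb, whose transcript XM_039670842.1 had 125, 186 and 224 CPM in the outer set, against 32.3, 58.8 and 123 CPM in the middle set and 60.2, 92.9 and 124 CPM in water. The sets were parted by the narrow step between 123 and 125 CPM, and the sum over the transcripts of postnb overlapped between the sets, with a log2 difference of 0.61 against 1.67 for the single transcript. Osteopontin, a protein of mineralizing bone and of macrophages, is encoded by spp1, with 25.8, 31.2 and 42.5 CPM in the outer set and 11.9, 15.5 and 21.5 CPM in the middle set. Water, at 15.9 to 28.1 CPM, overlapped both.

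The matrix glycoprotein transcript fbln1 XM_039647945.1 had 9.55, 13.6 and 21.9 CPM in the outer set and 4.9, 6.79 and 8.5 CPM in the middle set, while the sum for its gene overlapped. The fifth transcript of the list was that of lasp1, an actin-binding adaptor and not a matrix protein. It had 82.5, 91.8 and 103 CPM in the outer set and 60.1, 66.9 and 75 CPM in the middle set. Beyond the list, the collagen transcript col28a2a had 30.7, 41.7 and 56.1 CPM in the outer set and 7.13, 13.4 and 27.1 CPM in the middle set. In zebrafish, actinodins such as and3 build the actinotrichia, the fibres that stiffen the fin fold. The and3 transcript had 30.3, 37.3 and 50.7 CPM in the outer set and 11, 16.1 and 26.9 CPM in the middle set, with no overlap and a log2 difference of 1.21.

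Of the 66 transcripts of the lysosome and phospholipidosis list, 3 lay above (4.55%, against 0.297% of all tested) and none below. The count above was 1 without scaling between libraries and 0 with the effect of fragment length removed. The largest difference of the whole group belonged to glb1l2, a relative of the lysosomal beta-galactosidase, with 19.7, 29.6 and 40 CPM in the outer set, against 0, 2.84 and 4.78 CPM in the middle set and 2.81, 5.42 and 6.86 CPM in water. Water and the middle set were thus both well below every outer library, and the log2 difference of the set medians was 3.35. The beta-glucuronidase transcript gusb had 25.7, 31.4 and 47.5 CPM in the outer set and 12.8, 18.2 and 25.6 CPM in the middle set. Prosaposin, the precursor of sphingolipid activator proteins, is encoded by psap, with 229, 251 and 358 CPM in the outer set and 166, 180 and 225 CPM in the middle set. The sets of gusb and psap touched almost edge to edge, and neither transcript parted them in deposited TPM, a level per transcript length, or without scaling of CPM. All of glb1l2, gusb and psap overlapped with the effect of fragment length removed. For glb1l2, replicate B at 47.2 µg/L had 27.9 CPM at a fragment length of 228.1 bp. The middle libraries, at 222.3 to 246.5 bp, had at most 4.78 CPM, and the part of length was not tested.

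Among other transcripts above, slc22a16, a transporter of carnitine and organic cations, showed a narrow spread. Its levels were 88, 98.8 and 118 CPM in the outer set, 56.8, 62.6 and 66.7 CPM in the middle set and 53.2, 60.6 and 64.5 CPM in water, with all 5 water libraries below every outer library. Hippocalcin, a neuronal calcium sensor encoded by hpca, had 11.8, 13.7 and 16 CPM in the outer set, 5.18, 6.65 and 8.99 CPM in the middle set and 5.38, 6.28 and 8.07 CPM in water. In both transcripts water and the middle set covered nearly the same range.

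The RNA-binding protein transcript tial1 had 17, 22.8 and 36.8 CPM in the outer set and 0, 2.51 and 6.03 CPM in the middle set, with a log2 difference of 3.14 that was 1.47 for the sum over its gene. The calcium pump of the sarcoplasmic and endoplasmic reticulum, atp2a2a, had 33.3, 44.8 and 62 CPM in the outer set and 5.03, 10.1 and 29.2 CPM in the middle set, but its gene sum overlapped. The remaining named transcripts above had log2 differences of 0.42 to 1.78. They were single transcripts of the septin septin9a, the fin and limb mesenchyme homeobox gene prrx1b, the myelin glycoproteins mag and mpz, the repressor cica, fndc7a, the methylarginine reader tdrd3, the G protein subunit gnb1a and the keratin krt8. Summed over their genes, 5 of these overlapped between the sets, with log2 differences of 0.50 for septin9a, 0.60 for prrx1b, 0.10 for mag, 0.11 for mpz and 0.08 for tdrd3. The single transcripts mag XM_039670924.1 and mpz XM_039694731.1 differed by 1.46 and 0.81. The levels of krt8 were 740, 809 and 1010 CPM in the outer set and 505, 605 and 737 CPM in the middle set, and it overlapped without scaling between libraries.

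**Figure D2:**
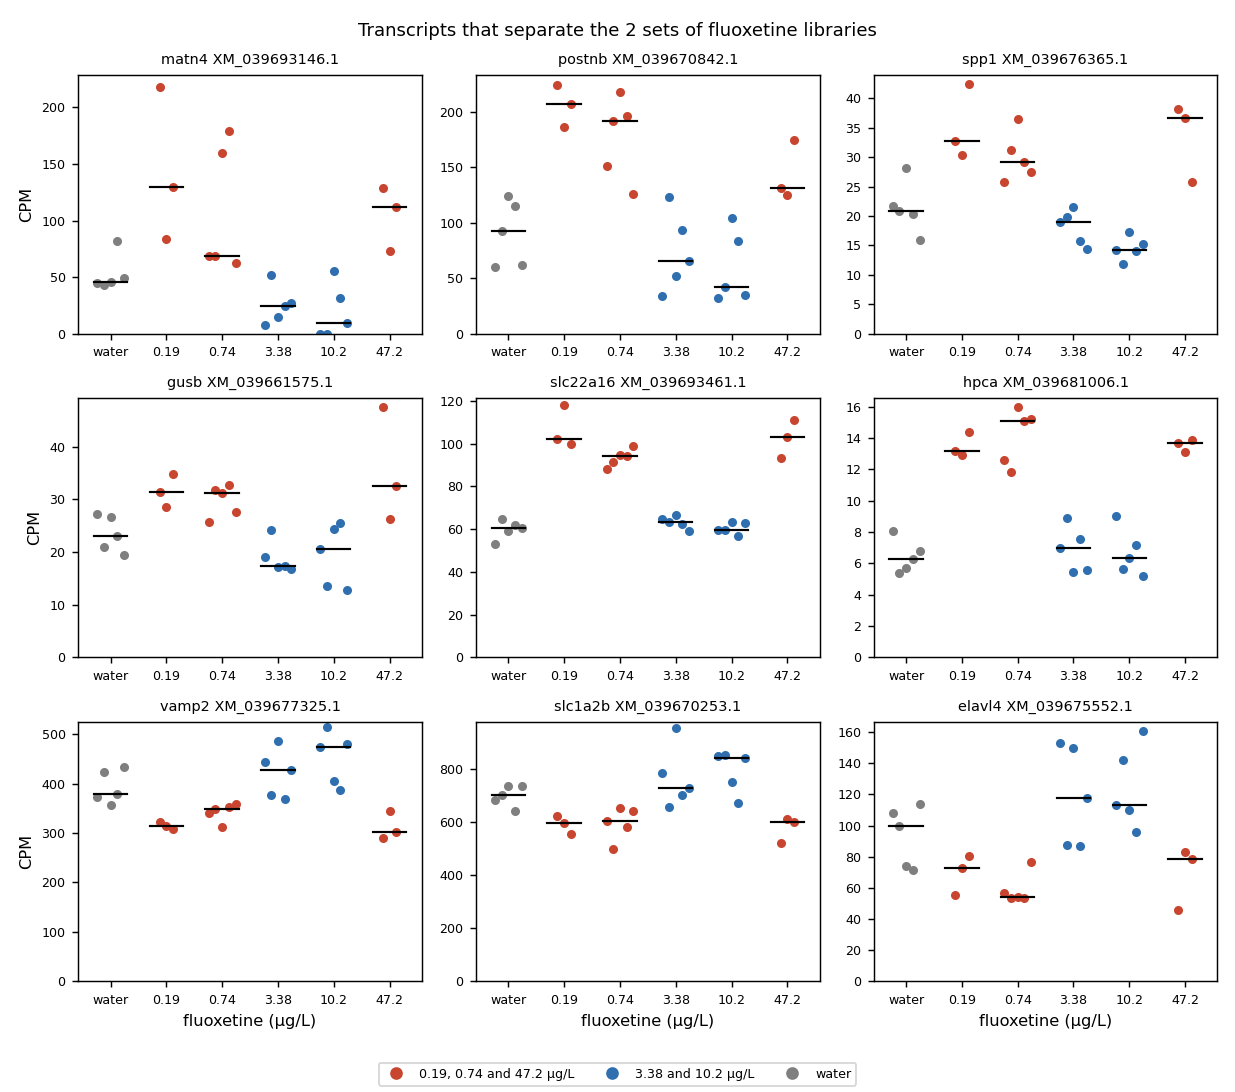
Level in CPM (linear axes from 0) of 9 transcripts that part the sets, by fluoxetine concentration in µg/L on an axis that is not to scale; points are libraries and bars are group medians. For slc22a16 every outer library is at or above 88 CPM and every other library at or below 66.7 CPM, whereas for matn4 the water libraries, at 43.1 to 82.3 CPM, overlap both sets.

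Neuronal and glial transcripts lay on both sides. Those of hpca, mag and mpz described before lay above, with log2 differences of 1.03, 1.46 and 0.81. Others had lower levels in the outer set. The synaptic vesicle protein transcript vamp2 had 290, 322 and 358 CPM in the outer set, 369, 435 and 514 CPM in the middle set and 357, 378 and 434 CPM in water. The glutamate transporter of glia, slc1a2b, had 496, 599 and 652 CPM in the outer set, 655, 767 and 953 CPM in the middle set and 640, 699 and 735 CPM in water. In both, the outer and middle sets did not overlap but lay close, with log2 differences of -0.44 and -0.36, and water overlapped each. Both overlapped between the sets with the effect of fragment length removed, as did elavl4.

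The neuronal RNA-binding protein transcript elavl4 had 46, 56.8 and 83 CPM in the outer set and 86.6, 115 and 161 CPM in the middle set, a log2 difference of -1.02, while the sum for its gene overlapped at -0.65. Other neural transcripts below included frmpd4, a scaffold of the postsynaptic density, and ahcyl1, a regulator of inositol trisphosphate receptors. They also included rufy3, a factor of neuronal polarity, and cnrip1b, a partner of cannabinoid receptors. Their log2 differences lay between -1.47 and -0.99. The sum over the gene overlapped between the sets for all but cnrip1b, which had no other tested transcript. The outer libraries were not alike in frmpd4. Its transcript was at 0 CPM in every library at 0.19 µg/L and in replicate A at 47.2 µg/L. It had 5.48 to 11.9 CPM at 0.74 µg/L and 8.47 and 10.8 CPM in replicates B and C at 47.2 µg/L, against 12.2 to 24.2 CPM in the middle set. For rufy3 the gene sum had a difference of 0.02, of the other sign. Summed neuron markers (elavl3, snap25a, syt1a and stmn1b) ran from 1110 to 1300 CPM in the outer set and from 1230 to 1750 CPM in the middle set, so the marker sums moved in the same direction and overlapped, and their part in the result was not tested.

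Of 107 transcripts on the splicing list, 2 lay below (1.87%, against 0.294% of all tested) and none above. With the effect of fragment length removed 1, srek1, lay below. The serine and arginine rich splicing regulator srek1 had 4, 16 and 24.6 CPM in the outer set, 38.9, 55.1 and 81.9 CPM in the middle set and 44.7, 53 and 60.3 CPM in water. All 5 water libraries were above every outer library. The other, the branch site factor subunit u2af2a, had a log2 difference of -2.14 in the single transcript and -0.08 in the sum for its gene, which overlapped. Its transcripts XM_039679581.1 and XM_039679582.1 differed by 6.69 and 3.94 in the other direction. Its remaining tested transcripts differed by -0.24 and -0.52, and all of these overlapped between the sets. Further single transcripts below were those of the fatty acid desaturase scdb at -2.15, the cytoskeletal adaptor sorbs2a at -2.07, lmo3 at -1.88, the calcium-activated chloride channel ano2b at -1.53 and the calcineurin regulator rcan1a at -0.43. Their gene sums overlapped between the sets for scdb at -0.27, sorbs2a at -0.27, ano2b at -0.16 and rcan1a at -0.07, and parted them for lmo3 at -0.60. The small prion relative sprn at -0.75 and ccdc167 at -0.74 had no other tested transcript.

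In some genes a single transcript parted the sets while the others of the gene did not. The transcript mbpa XM_039678790.1, for myelin basic protein, had 0.96, 1.94 and 4.75 CPM in the outer set, 9.99, 30.4 and 51 CPM in the middle set and 13.9, 19.2 and 24.8 CPM in water. Its log2 difference of -3.89 stood beside 0.35 for XM_039678788.1 and -0.06 for XM_039678789.1, and the sum over mbpa overlapped at -0.20. Every outer library was thus below every middle and water library in 1 of 3 transcripts only.

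For atp5mc3b, a membrane subunit of the mitochondrial ATP synthase, 1 transcript lay above and 1 below, the sole gene with both. XM_039689574.1 had 296, 324 and 371 CPM in the outer set, against 196, 222 and 262 CPM in the middle set and 208, 215 and 241 CPM in water. XM_039689575.1 had 156, 188 and 203 CPM in the outer set, against 262, 306 and 378 CPM in the middle set and 263, 277 and 317 CPM in water. The log2 differences of 0.55 and -0.70 gave -0.07 in the sum, and in both transcripts the water libraries lay with the middle set, clear of the outer one.

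The kinectin gene ktn1, whose product anchors kinesin to the endoplasmic reticulum, had 80.7, 104 and 133 CPM of XM_039666693.1 in the outer set, 26.6, 35 and 59.4 CPM in the middle set and 36.8, 42.1 and 50.5 CPM in water. The sum over ktn1 also parted the sets, at 0.82. The small GTPase rab28 acts in photoreceptor outer segments in mammals. Its transcript XM_039654938.1 had 13.2, 16 and 18.4 CPM in the outer set and 20.3, 24.1 and 25.8 CPM in the middle set. XM_039654939.1 differed by -1.51 in the same direction and XM_039654940.1 by 1.34 in the other, both with overlap. The sum over rab28 overlapped between the sets at -0.49. Reads that several transcripts of a gene share are divided between them by estimation, which makes a single transcript less certain than its sum.

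**Figure D3:**
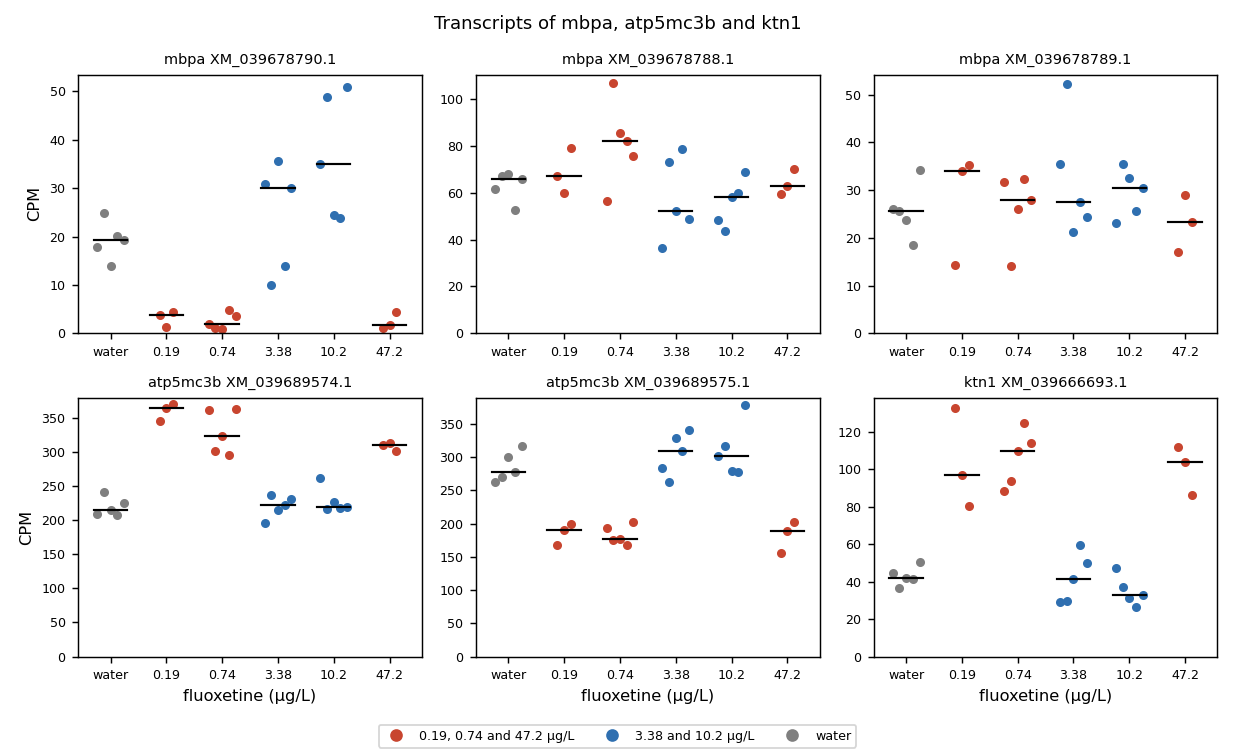
Level in CPM (linear axes from 0) of the 3 mbpa transcripts, both atp5mc3b transcripts and 1 ktn1 transcript, by fluoxetine concentration in µg/L on an axis that is not to scale; points are libraries and bars are group medians. The outer libraries are at 0.96 to 4.75 CPM in mbpa XM_039678790.1 and overlap the rest in the other mbpa transcripts, and the pair of atp5mc3b transcripts differ in opposite directions.

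Of the 101 transcripts above that could be paired with a gene, 31 had at least 1 other tested transcript of the same gene. The gene sum parted the sets in the same direction in 9 of these 31, and overlapped in 22. Among the 84 paired transcripts below, 28 were of this kind, and the sum parted the sets in 7 and overlapped in 21. In 2 cases above and 2 below the sum had the opposite sign. Summed per gene over the whole table, 150 of 34679 features lay above (0.433%) and 137 below (0.395%).

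The sign of the difference at each of the 3 outer concentrations is fixed by the choice of these groups, and its size was as follows. The median log2 difference from the middle set over the 130 transcripts above was 0.69 at 0.19, 0.60 at 0.74 and 0.67 at 47.2 µg/L. Over the 129 below it was -0.53 at 0.19, -0.45 at 0.74 and -0.51 at 47.2 µg/L. Inside the middle set, 10.2 minus 3.38 µg/L had medians of -0.08 and 0.04 over the same groups. By the choice of the sets, the lowest and the highest concentrations lay together, apart from the middle ones.

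The water libraries belong to neither set, but their calls against each concentration were known when the sets were formed, so their place beside the sets is a description and not independent of the division. Of the 130 transcripts above, the water median was nearer the middle median in 97 and nearer the outer median in 33. All 5 water libraries were clear of the outer set in 51, clear of the middle set in 2 and overlapped both in 77. Of the 129 below, the water median was nearer the middle set in 106 and nearer the outer set in 23, and all 5 water libraries were clear of the outer set in 47, of the middle set in 1 and overlapped both in 81.

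Fixed gene lists give the wider picture, and they were drawn up with earlier results of these data known. In the cartilage, bone and matrix list all 35 transcripts of 28 genes had a higher median in the outer set, with a median log2 difference of 0.64, against 46.0% of transcripts and a median of 0.00 over all tested. The type II collagen of cartilage, as its transcript with the larger difference in col2a1a, had 95.8, 238 and 352 CPM in the outer set and 29.2, 48.8 and 177 CPM in the middle set. The type I collagen transcript col1a1a had 1530, 2290 and 3180 CPM in the outer set and 773, 1380 and 2080 CPM in the middle set. Both overlapped between the sets, and these examples were chosen after their values were seen. The list's mean per library, relative to water, ran from 0.02 to 0.69 in the outer set and from -0.94 to 0.22 in the middle set on the log2 scale, with water at -0.38 to 0.28. With the effect of fragment length removed, 34 of the 35 were still higher, with a median of 0.45, while the number clear of the middle set was 1 in place of 5.

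Epidermal transcripts, which include keratins and desmosome proteins, had a higher median in the outer set in 20 of 22, with a median log2 difference of 0.57 and 1 transcript (krt8) clear of the middle set (4.55%, against 0.297% of all tested), which overlapped without scaling or with the effect of fragment length removed. The mean of the epidermis list relative to water was -0.003 to 0.081 at 47.2 µg/L, inside the water range of -0.175 to 0.236. It was 0.171 to 0.266 at 0.19, -0.138 to 0.537 at 0.74 µg/L and -0.772 to 0.143 in the middle set. The desmoplakin transcript dspa had 122, 176 and 206 CPM in the outer set and 68.6, 88.7 and 148 CPM in the middle set. The summed epidermis markers had 2890, 5000 and 5610 CPM in the outer set and 2880, 3630 and 4690 CPM in the middle set, so that the outer median exceeded every middle library while the ranges overlapped. The markers are part of the same list, and their part in the result was not tested. Macrophage and neutrophil transcripts were higher in 21 of 26 with a median of 0.36 and none clear of the other set, and at levels of a few CPM for most. The mean of that list relative to water was -0.25 to 0.38 in the outer set, -0.66 to 0.04 in the middle set and -0.2 to 0.22 in water. Of 3 macrophage markers only marco was found, at 0 to 6.09 CPM in the outer set and 0 to 3.27 CPM in the middle set. Lysosomal transcripts were higher in 47 of 66 with a median of 0.22, which was 0.05 with the effect of fragment length removed. The mean of the lysosome list relative to water was highest at 47.2 µg/L, at 0.315 to 0.408. It was -0.033 to 0.219 at 0.19 and 0.084 to 0.282 at 0.74 µg/L. The middle set had -0.226 to 0.173 and water -0.126 to 0.082.

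Photoreceptor transcripts had lower medians in the outer set in all but 3 of 30, with a median log2 difference of -0.38, and -0.31 with the effect of fragment length removed. The rod opsin transcript rho had 603, 891 and 1110 CPM in the outer set and 827, 1160 and 1450 CPM in the middle set. The cone arrestin transcript arr3a had 107, 190 and 340 CPM in the outer set and 159, 302 and 538 CPM in the middle set. Neither parted the sets, and in this list only gnb1a lay clear above and only rab28 XM_039654938.1 clear below (1 of 30 each, 3.33%), and gnb1a overlapped without scaling or with the effect of fragment length removed. The list's mean relative to water ran from -0.50 to -0.04 in the outer set and from -0.09 to 0.55 in the middle set. Water had -0.244 to 0.116, and the libraries at 0.74 µg/L, at -0.244 to -0.037, did not go beyond that range. Those at 0.19 µg/L had -0.393 to -0.304 and those at 47.2 µg/L -0.504 to -0.276. The gene rab28 was among those known from earlier results of these data.

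Against 0.297% above and 0.294% below over all tested, the calcium signalling and synapse list had 1 transcript above (1.06%) and 3 below (3.19%) of 94, with a median of -0.16. It had 1 above and 0 below with the effect of fragment length removed. The myelin and glia list had 2 above and 2 below of 27 (7.41% each), which were 0 and 1 with that effect removed. The mitochondrial respiratory chain list had 1 above and 1 below of 69 (1.45% each), which were 2 and 1 with that effect removed, and both lists had medians of -0.12. The biotransformation and transport list had 1 above of 27 (3.70%) and a median of 0.18, with 1 above under that alternative too. Genes known from earlier results of these data, such as hpca, rcan1a, mbpa and slc22a16, supplied part of these counts. Nothing is therefore read from these shares. In the lists for serotonin signalling, lens, skeletal muscle, pancreas and intestine, hepatocyte, heat shock and unfolded proteins, circadian clock, erythroid cells and cell cycle, no transcript parted the sets in either direction, and their medians lay between -0.20 and 0.21.

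**Figure D4:**
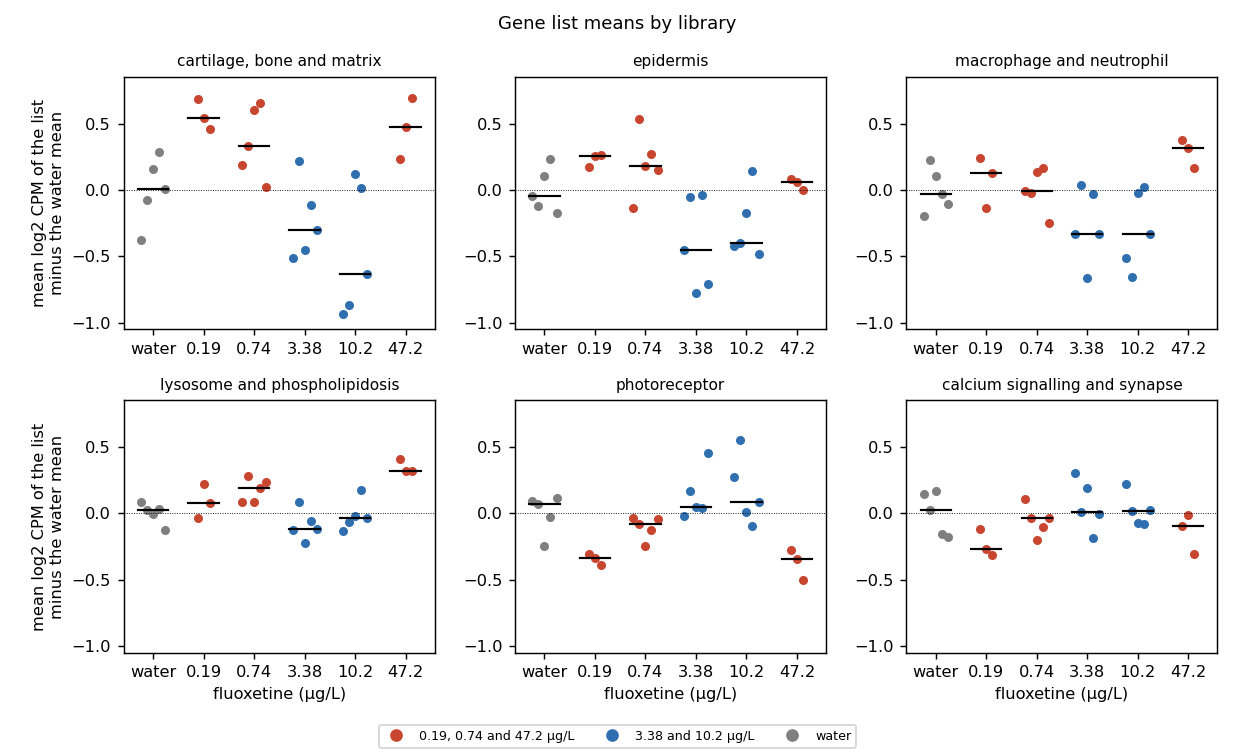
Mean log2 CPM of 6 gene lists in each library minus the mean of the water libraries, by fluoxetine concentration in µg/L on an axis that is not to scale; points are libraries, bars are group medians and the dotted line is the water mean. The cartilage, bone and matrix list runs from 0.02 to 0.69 in the outer set and from -0.94 to 0.22 in the middle set, and the photoreceptor list from -0.50 to -0.04 and from -0.09 to 0.55.

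The serotonin transporter, the target of fluoxetine, did not part the sets. The slc6a4a transcript had 7.19, 9.48 and 11.4 CPM in the outer set, 0.375, 6.69 and 8.14 CPM in the middle set and 7.13, 8.96 and 10.8 CPM in water. The slc6a4b transcript had 3.18, 3.61 and 4.93 CPM in the outer set, 2.2, 2.84 and 3.75 CPM in the middle set and 2.24, 2.89 and 3.96 CPM in water. The ranges of each overlapped between all 3. Over the 27 transcripts of serotonin signalling, 13 had a higher median in the outer set, and 16 with the effect of fragment length removed. The mitochondrial complex I subunit ndufb5 also overlapped, with 16.5, 26.3 and 33.9 CPM in the outer set and 8.27, 11.6 and 20.4 CPM in the middle set.

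Within the outer set the concentrations could be tested, with edgeR's quasi-likelihood test and Benjamini-Hochberg adjustment over all 43837 transcripts. The concentrations of each set were put together after these values had been seen. A small number of calls inside a set is therefore not independent of that choice, and no agreement between concentrations is concluded from it. The p-values measure the spread between pools of larvae. The 3 comparisons of the outer set share libraries with one another. At 0.74 against 0.19 µg/L no transcript passed an adjusted p of 0.05 (0 of 43837, 0%), with 1810 at an unadjusted p under 0.05 (4.13%), while DESeq2 called 173. At 10.2 against 3.38 µg/L, inside the middle set, none passed either, with 1224 at an unadjusted p under 0.05 (2.79%) and 71 called by DESeq2. At 47.2 against 0.19 µg/L 1 transcript fell (0.00228%), with 1935 at an unadjusted p under 0.05, and DESeq2 called 196.

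At 47.2 against 0.74 µg/L 2 transcripts rose (0.00456%) and 4 fell (0.00912%), together 6 (0.0137%), with 2753 at an unadjusted p under 0.05, and DESeq2 called 335. These counts make no allowance for the replicate letters, and a block on the letter gave 37 calls, 5 of them among the 6. The transcript of npc2.1, a relative of the lysosomal cholesterol-binding protein NPC2, had 85.5, 73.4 and 73.7 CPM at 47.2 µg/L, against 42.7, 48.9, 51, 55.3 and 44.1 CPM at 0.74 µg/L. It rose by a log2 fold change of 0.68 ± 0.11 (SE, edgeR adjusted p = 0.0235). All 3 libraries at 47.2 µg/L were above all others of the series. The solute carrier slc35f6 had 43.7, 39 and 37.8 CPM at 47.2 µg/L, against 23.1, 27, 27.4, 27.8 and 27.2 CPM at 0.74 µg/L, a rise of 0.60 ± 0.09 (edgeR adjusted p = 0.0235).

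The peptide transporter of the intestine, slc15a1a, had 45.5, 28.5 and 29.5 CPM at 47.2 µg/L, against 70.4, 67.8, 73.5, 73 and 68.3 CPM at 0.74 µg/L, a log2 fold change of -1.03 ± 0.15 (edgeR adjusted p = 0.0165). The keratin krt97 had 326, 353 and 342 CPM at 47.2 µg/L, against 521, 584, 475, 477 and 558 CPM at 0.74 µg/L, a log2 fold change of -0.62 ± 0.10 (edgeR adjusted p = 0.0491). Neither transcript overlapped between 47.2 and 0.74 µg/L. In water krt97 had 347 to 381 CPM, in the middle set 304 to 432 CPM and at 0.19 µg/L 391, 419 and 524 CPM. Its levels at 47.2 µg/L thus overlapped those of water and of the middle set, and those at 0.74 µg/L lay above both. For slc15a1a water had 60.5 to 78.7 CPM, above every library at 47.2 µg/L. These 4 transcripts separate 47.2 from 0.74 µg/L and not the outer from the middle set, where their log2 differences were 0.13 for npc2.1, 0.24 for slc35f6, 0.22 for slc15a1a and 0.21 for krt97, all with overlap.

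Both other transcripts that fell carried no gene name and were at 0 counts in all 3 libraries at 47.2 µg/L. XM_039655068.1 had 1.44 to 4.08 CPM at 0.74 µg/L (edgeR adjusted p = 0.0491). The non-coding model XR_005620850.1 had 0.452 to 0.806 CPM at 0.74 µg/L (edgeR adjusted p = 0.0021) and 0.302 to 0.807 CPM at 0.19 µg/L (edgeR adjusted p = 0.00485), and it was the call of the comparison with 0.19 µg/L. The limit that 0 counts allow in the 47.2 µg/L libraries was 0.109, 0.167 and 0.182 CPM.

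The calls depended on single libraries. Without 1 library at a time the count at 47.2 against 0.74 µg/L ran from 2 to 7, with 2 without replicate A, B or E at 0.74 µg/L. The adjusted p of npc2.1 was 0.124 without replicate A and 0.0631 without replicate C at 47.2 µg/L, and 0.09, 0.0526 and 0.0945 without replicates A, B and E at 0.74 µg/L. That of slc35f6 was 0.124 and 0.0536 without replicates A and B at 47.2 µg/L, and 0.09, 0.0526 and 0.0741 without A, B and E at 0.74 µg/L. The call of slc15a1a was lost without replicate B (0.0919) or C (0.0826) at 47.2 µg/L, and krt97 and XM_039655068.1 held in 1 and in 0 of these 8 fits. XR_005620850.1 held in all of them.

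The count at 47.2 against 0.19 µg/L was 9, 4 and 8 without replicates A, B and C at 0.19 µg/L, and 6, 4 and 2 without A, B and C at 47.2 µg/L. At 0.74 against 0.19 µg/L it was 8, 4 and 9 without A, B and C at 0.19 µg/L and 2 without C at 0.74 µg/L. At 10.2 against 3.38 µg/L it was 1 without C at 3.38 µg/L, 2 without A and 1 without D at 10.2 µg/L. With fragment length as a covariate the count at 47.2 against 0.74 µg/L was 1.

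**Figure D5:**
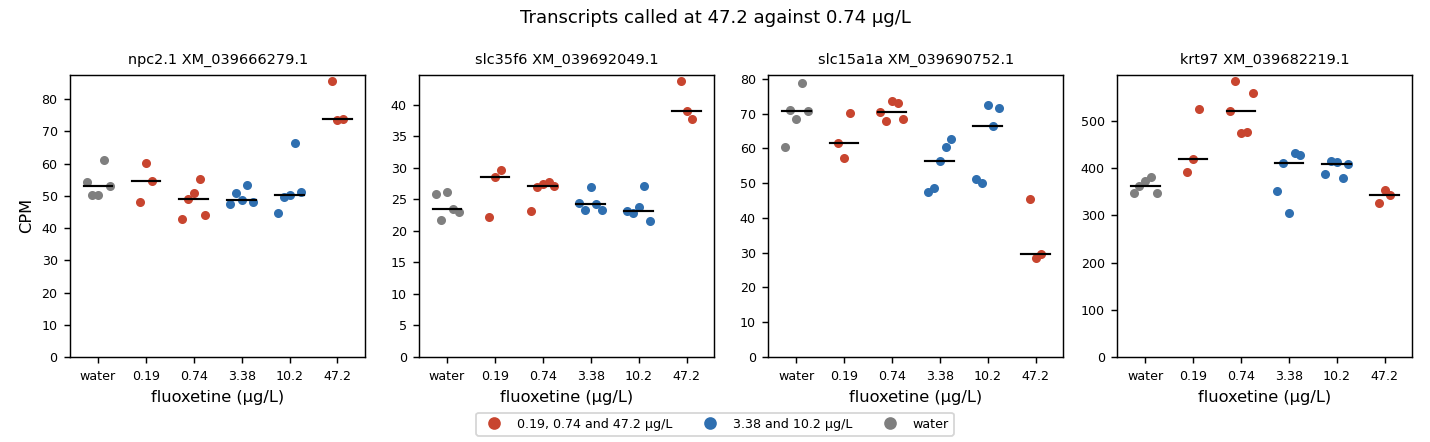
Level in CPM (linear axes from 0) of the 4 named transcripts that changed at 47.2 against 0.74 µg/L, by fluoxetine concentration in µg/L on an axis that is not to scale; points are libraries and bars are group medians. For npc2.1 the 3 libraries at 47.2 µg/L lie at 73.4 to 85.5 CPM and those at 0.74 µg/L at 42.7 to 55.3 CPM, and for slc15a1a at 28.5 to 45.5 CPM and 67.8 to 73.5 CPM.

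None of the 259 transcripts that part the sets passed an adjusted p of 0.05 in any of the 4 comparisons inside a set. At an unadjusted p under 0.05 there were 10 at 0.74 against 0.19 µg/L (3.86%, against 4.13% of all tested), 5 at 47.2 against 0.19 µg/L (1.93%, against 4.41%), 9 at 47.2 against 0.74 µg/L (3.47%, against 6.28%) and 1 at 10.2 against 3.38 µg/L (0.386%, against 2.79%). Their median absolute log2 fold changes were 0.08, 0.09, 0.09 and 0.06 in that order, against 0.22, 0.23, 0.24 and 0.17 over all transcripts. A transcript whose sets do not overlap has a small spread inside each set by choice, so these low values and shares are not independent of the rule.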

How the data were processed

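Messenger RNA was selected by its poly(A) tail and made into libraries with a directional kit, per the labels' protocols. The submitters' processing notes name Trimmomatic 0.38 for trimming, kallisto and DESeq2; index, genome build and settings: not given in the sources used here. Estimated counts of each RefSeq transcript were deposited jointly for all 26 libraries and again for each library alone. The files of single libraries also hold TPM, transcript length and effective length, as deposited. The joint and single forms differed by at most 5e-08. The authors' comparison tables against water were not used here.

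Estimated counts were rounded to whole numbers. Of 57299 transcripts, 48442 were coding and 8857 non-coding models, and filterByExpr in edgeR kept 43837 with 99.9% of counts. Libraries were scaled by TMM (factors 0.951 to 1.04). A RefSeq gene table of assembly fPimPro1.hap1.1, possibly another build than the authors used, paired 31554 transcripts (55.1%, with 82.6% of counts) with a gene and served only for names and gene sums, matching accessions without their version. Kallisto divides shared reads between transcripts of a gene and between near-identical paralogs. Implied fragment length is the median of length minus effective length over transcripts of at least 3000 bases.

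A robust quasi-likelihood model in edgeR 4.0.16 (limma 3.58.1, R 4.3.3) was fitted to all 6 groups, water included, to give the groups of 3 a common estimate of spread. In it 4 pairs of concentrations inside a set were tested, two-sided, with calls at a Benjamini-Hochberg adjusted p below 0.05. The procedure was also run on simulated data with known changes, drawn without an effect of replicate letter or fragment length. No conclusion is drawn from that run. A transcript parts the sets where no CPM value of one reaches the other; the log2 difference is that of the set medians of log2 CPM with a prior count of 2, outer minus middle. The members and gene lists were chosen with earlier results of these data known. Named transcripts were, among those with a symbol averaging 1 CPM or more, the 14 with the largest difference in each direction, then called transcripts (up to 5 per test), list members that part the sets, both serotonin transporters, and genes known from earlier results. Other genes were added as examples after their values were seen.

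All 46 pairs of replicates differed by more than sampling noise, the closest with a chi-square of 15.6 per degree of freedom. The floors cover counting error only. Values after ± are the SD between libraries or the SE from the quasi-likelihood fit, which includes the spread between pools. Alternatives were DESeq2 1.42.0, RLE scaling or none, no low-count filter, gene sums, TPM, the 21 fluoxetine libraries alone, other prior counts (0.5 and 5), a replicate letter block, a fragment length covariate, and each library or concentration left out.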

Additional observations from a re-analysis of the deposited data

Results flagged for a closer look

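In 208 groups of 5 libraries, those of the named transcripts and of the library properties, 12 held a library whose gap to the nearest other exceeded Dixon's critical value, and chance gives about 1 in 20 groups. The groups of 3 at 0.19 and 47.2 µg/L were too small for this rule and were not checked. At 0.74 µg/L, cica had 13.7 CPM in replicate A against 15.2 to 15.7 CPM in the others, slc35f6 had 23.1 CPM in replicate A against 27.0 to 27.8 CPM, and elavl4 had 76.4 CPM in replicate E against 53.1 to 56.8 CPM. At 3.38 µg/L, cica had 9.23 CPM in replicate B against 5.04 to 5.87 CPM, rab28 XM_039654938.1 had 20.6 CPM in replicate B against 24.7 to 25.1 CPM, and mpz had 8.45 CPM in replicate C against 4.79 to 5.73 CPM. At 10.2 µg/L, atp5mc3b XM_039689574.1 had 262 CPM in replicate A against 217 to 227 CPM.

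In water, matn4 had 82.3 CPM in replicate D against 43.1 to 49.4 CPM in the others, septin9a had 7.15 CPM in replicate D against 3.28 to 3.89 CPM, and krt8 had 550 CPM in replicate E against 695 to 753 CPM. The implied fragment length was 222.3 bp in replicate A at 3.38 µg/L against 237.0 to 242.4 bp in the others, and 246.5 bp in replicate C at 10.2 µg/L against 226.2 to 230.2 bp.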

How the results depend on the processing

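Of the counts under each alternative, 87 stayed within 1.5 times the first value and 45 did not; the cause was not tested except where fewer libraries made separation easier by construction. Transcripts above and below numbered 130 and 129, and 86 above without scaling. They were 473 and 350 without 0.74 µg/L, 332 and 351 without 3.38 µg/L, 453 and 325 without 10.2 µg/L, and 247 and 225 without 47.2 µg/L. Leaving out 1 library gave 130 to 263 above and 131 to 189 below. In alternatives added after seeing the data, 194 lay below without replicate B at both 0.19 and 47.2 µg/L, and 78 and 77 with the effect of fragment length removed. In TPM 105 lay above and 115 below, of which 82 and 78 were among the first counts.

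For 0.74 against 0.19, 47.2 against 0.19, 47.2 against 0.74 and 10.2 against 3.38 µg/L, edgeR called 0, 1, 6 and 0 transcripts and DESeq2 173, 196, 335 and 71. Leaving out 1 library gave 0 to 9, 2 to 9, 2 to 7 and 0 to 2. With the fluoxetine libraries alone the counts at 47.2 µg/L were 2 against 0.19 and 2 against 0.74 µg/L. With fragment length as a covariate, 0.74 against 0.19 gave 1 and 47.2 against 0.74 gave 1. Without replicate B at both 0.19 and 47.2 µg/L the first 3 counts were 6, 8 and 10. With fragment length as a covariate, npc2.1 (adjusted p = 0.413), slc35f6 (0.222), slc15a1a (0.451) and krt97 (0.616) were no longer called, and over all alternatives their adjusted p ran from 4.18e-09 to 0.616.

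The replicate letters are not stated to mark shared dishes or days. Same-letter libraries of different groups correlated at -0.0232 to 0.133 in their deviations from group means (57 pairs, median 0.054, 8 over 0.1), against -0.104 to 0.0636 for different letters (222 pairs, median -0.0113, none over 0.1). In 25 of 26 libraries the mean correlation was highest with the library's own letter, a hint from the data and not from the design. The block was kept as an alternative because not every same-letter pair exceeded 0.1. That criterion does not show that the letters can be left out, and the first counts make no allowance for them. A block on the letter gave 37 calls at 47.2 against 0.74 µg/L, 5 of them among the 6, and left the other tests at 0, 1 and 0. With the letter effect removed, 441 transcripts lay above and 324 below.

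Of the level differences, 153 moved by less than the spread between replicates, 21 by more, and 2 changed sign, both as gene sums: 0.02 for rufy3 and -0.07 for atp5mc3b XM_039689574.1. Depth limits transcripts of a few CPM, and groups of 3 limit the tests at 0.19 and 47.2 µg/L.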
